A study of Mus musculus with 12 samples.

Results

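The miR-200 family of the mouse was measured here as its 5 mature 3p arms, mmu-miR-200b-3p, mmu-miR-200a-3p and mmu-miR-429-3p from a locus on chromosome 4, and mmu-miR-200c-3p and mmu-miR-141-3p from a locus on chromosome 6. The arms were picked by name, as 5 of the 1978 rows of mature miRNAs in each count table, and all 5 were found. The rule itself uses no measured value, but it was set with earlier results of these data known. The groups were paused ESC, control ESC, paused TSC and control TSC. ESC are embryonic stem cells, all of the mouse line E14, and TSC are mouse trophoblast stem cells, the stem cells of the placental lineage, whose line is not given in the sources used here. Paused cells had been brought into a dormant state by inhibition of mTOR, the kinase that couples nutrients to growth, and control cells of either type carry the label WT. Neither the inhibitor nor its dose and duration is stated by the labels. The labels name 12 samples, 3 per group. In every group the tables of replicates 2 and 3 were identical in each of the 1978 rows. They were therefore counted as 1 sample, which leaves 8 libraries and n = 2 in each group. Nothing in the labels says that libraries came from separate cultures, so p-values measure only the spread between these libraries, which may be technical.

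MicroRNAs of the miR-200 family hold cells in the epithelial state. They pair through the seed, bases 2 to 8 of the mature strand, with the messages of Zeb1 and Zeb2, repressors of E-cadherin, and the ZEB proteins in turn bind E-box motifs and repress the genes of both miR-200 loci. The family is known to rise when fibroblasts are reprogrammed to pluripotent cells, an early step of which is a mesenchymal-to-epithelial transition. In trophoblast stem cells, which grow as an epithelium, the balance of epithelial and mesenchymal programmes is part of their exit from the stem cell state.

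The sequences are shown because the family can be split in 2 ways that cross each other, by locus and by seed. All were taken from RefSeq on GRCm38.p6, where each of the 5 arms matched by name. The mature arms are printed 5′ to 3′ with the seed in capitals, the chromosome 4 arms first.
miR-200b-3p: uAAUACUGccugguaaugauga
miR-200a-3p: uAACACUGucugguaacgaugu
miR-429-3p: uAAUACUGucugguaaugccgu
miR-200c-3p: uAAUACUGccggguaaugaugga
miR-141-3p: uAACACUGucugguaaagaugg
The seed AAUACUG is shared by miR-200b-3p, miR-429-3p and miR-200c-3p, and the seed AACACUG by miR-200a-3p and miR-141-3p, and among 1679 named mature miRNAs in the RefSeq table no others had either seed. Both loci therefore make both seeds. The closest relatives lie on different chromosomes. Counted from the 5′ end, miR-200b-3p and miR-200c-3p differ at 2 of 22 positions, U11G and A22G, and miR-200c-3p is 1 base longer. miR-200a-3p and miR-141-3p also differ at 2 of 22 positions, C17A and U22G. How the authors' counting treated reads with mismatches is not given in the sources used here, and exchange of reads between the loci within each of these pairs was not tested. A read that ends before position 22 tells either pair apart by 1 base alone.

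The chromosome 4 locus spans 1846 bases on the minus strand, chr4:156053905-156055750 on GRCm38, with Mir200b first, then Mir200a, then Mir429. In GENCODE M21 all 3 hairpins lie in introns of the protein-coding gene Ttll10, a tubulin ligase-like gene, and within the noncoding transcript Gm13648, Mir200b and Mir200a in an intron of it and Mir429 in an exon. The chromosome 6 locus spans 477 bases, chr6:124717914-124718390, also on the minus strand, with Mir200c before Mir141, both in an intron of the antisense transcript Gm15884. Mir141 also overlaps in part an exon of the provisional gene Gm29008. The hairpins of miR-200a and miR-141 are printed with the 3p arm in capitals, to set the near-identical mature arms beside the rest of each precursor. The hairpins are 90 and 72 bases long, and their likeness outside the 3p arm was not scored.
Mir200a: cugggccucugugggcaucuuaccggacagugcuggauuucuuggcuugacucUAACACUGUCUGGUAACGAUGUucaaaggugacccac
Mir141: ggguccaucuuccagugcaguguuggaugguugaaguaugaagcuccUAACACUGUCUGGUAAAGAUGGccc

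**Figure D1:**
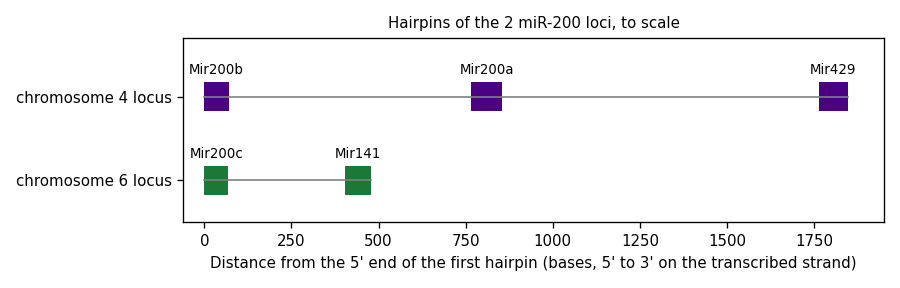
Hairpins of the chromosome 4 locus (upper line) and the chromosome 6 locus (lower line) as boxes, drawn to scale by distance in bases from the 5′ end of the first hairpin on the transcribed strand. The chromosome 4 locus holds 3 hairpins over 1846 bases and the chromosome 6 locus 2 hairpins over 477 bases.

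The RefSeq promoter table holds Gm13648, whose start lies upstream of Mir200b. The 300 bases are printed because the 3 arms of this locus rose together in paused ESC. They run from 250 bases before to 50 bases after the start, chr4:156059753-156060052 on GRCm38.p6, minus strand, with matches to the E-box CACCTG in capitals.
Gm13648 promoter: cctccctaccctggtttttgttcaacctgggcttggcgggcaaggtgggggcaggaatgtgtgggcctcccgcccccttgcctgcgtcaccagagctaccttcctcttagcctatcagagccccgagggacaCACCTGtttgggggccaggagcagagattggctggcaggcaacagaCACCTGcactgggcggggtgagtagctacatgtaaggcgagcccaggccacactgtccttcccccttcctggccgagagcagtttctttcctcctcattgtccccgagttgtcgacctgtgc
The motif was searched as CACCTG and its reverse complement CAGGTG, and it occurred 2 times. Of 32851 promoters of the same length, 20.2% held it at least once. This is a match of letters and says nothing of which factor was bound in these cells. No promoter of Gm15884 was among those available, so the chromosome 6 locus was not searched. Its arms also lay higher in both paused ESC libraries than in either control library.

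Counts were sparse. The total over all miRNAs was 73574 and 61749 in paused ESC, 19266 and 13607 in control ESC, 23652 and 30487 in paused TSC, and 115492 and 18725 in control TSC. Levels are given as counts and as CPM, counts brought to a common library size, here after trimmed-mean (TMM) scaling, with factors of 0.680 to 1.15, the lowest in control TSC replicate 1. A count of 0 allows 3 counts, worth 37.4 to 192 CPM per library. The labels mention no molecular identifiers, so such limits and all counting intervals cover counting error only. The markers of each cell type stood on the labelled side in control cells. The miR-302 and miR-367 arms, known from pluripotent cells, summed to 2051 to 3771 CPM in control ESC against 0 to 76.4 CPM in control TSC, but in paused ESC they summed to 61.9 to 74.8 CPM. The miR-322, miR-503 and miR-351 arms, known from trophoblast, summed to 661 to 1023 CPM over all ESC libraries and 54477 to 146165 CPM over all TSC libraries.

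The miR-200 family held a small part of these libraries. Its 5 arms made up 0.315% and 0.308% of counts in paused ESC, 0.135% and 0.125% in control ESC, 0.241% and 0.210% in paused TSC, and 0.140% and 0.187% in control TSC. The share was higher in both paused than in both control libraries of either cell type. Scaled by TMM, the sum was 2916 ± 32.6 CPM in paused ESC against 1136 ± 69.7 CPM in control ESC (SD, n = 2). In TSC it was 2146 ± 297 CPM in paused and 2085 ± 30.4 CPM in control cells, and the libraries overlapped, so the higher share in paused TSC did not hold on this scale. In bulk samples a lower level cannot be told apart from fewer cells that carry the miRNA.

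On pausing of ESC, all 3 arms of the chromosome 4 locus rose, and the fitted values of both chromosome 6 arms were also above 0 without passing the test. Calls are those of edgeR's quasi-likelihood test over all 4 groups, at a p under 0.05 after Benjamini-Hochberg adjustment over 206 miRNAs. To be tested, a miRNA needed about 369 CPM, unscaled, in 2 or more libraries. Of the 206, 27.7% were called on pausing of ESC, 8.25% higher and 19.4% lower, or 17 and 40 miRNAs. With TMM factors computed without the abundant miR-290 cluster, which moved single miRNAs by a median of 0.39 on the log2 scale, they were 41 and 33. The miR-200 family had 3 of 5 arms higher and 0 lower, with a median log2 fold change of 1.77, against −0.028 over all tested miRNAs. That count is no support by itself, because miR-200b-3p and miR-200c-3p reached the filter only in paused ESC, the group where they were high, while the other 3 arms reached it in a TSC group as well.

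mmu-miR-200b-3p, the first arm of the chromosome 4 precursor, had 49 and 46 counts in paused ESC (611 and 712 CPM), against 3 and 4 in control ESC (137 and 256 CPM). The libraries did not overlap, and the arm rose by 1.80 ± 0.61 SE on the log2 scale (edgeR adjusted p = 0.0157, and 0.00967 with no filter). miR-200a-3p had 36 and 27 counts in paused ESC (449 and 418 CPM), against 3 and 1 in control ESC (137 and 63.9 CPM). It rose by 2.00 ± 0.69 SE (adjusted p = 0.0186). With 4 counts in control ESC the pooled ratio of paused to control was 4.09, with a 95% counting interval of 1.52 to 15.5, so the size of this increase was poorly fixed. miR-429-3p had 72 and 42 counts in paused ESC (898 and 650 CPM), against 7 and 5 in control ESC (319 and 320 CPM), and rose by 1.28 ± 0.50 SE (adjusted p = 0.0374). All 3 arms of this locus were thus higher in both paused ESC libraries than in either control library, as 34.5% of all tested miRNAs were, while 34% lay lower in the same sense.

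Of the chromosome 6 arms, miR-200c-3p had 31 and 23 counts in paused ESC (387 and 356 CPM), against 2 and 2 in control ESC (91.1 and 128 CPM). Its log2 fold change of 1.77 ± 0.81 SE was close to that of miR-200b-3p but rested on 4 control counts and did not pass (adjusted p = 0.0876). miR-141-3p had 44 and 52 counts in paused ESC (549 and 804 CPM), against 11 and 5 in control ESC (501 and 320 CPM). Its log2 fold change was 0.67, with a 95% interval of −0.27 to 1.60 (adjusted p = 0.311). Both arms were higher in both paused libraries than in either control library, and the 95% interval of miR-200c-3p, 0.19 to 3.35, held the values of all 3 chromosome 4 arms, while that of miR-141-3p held the value of miR-429-3p alone.

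These calls rested on few libraries. DESeq2 called 0 of the 5 arms (adjusted p = 0.148 for miR-200b-3p, 0.107 for miR-200a-3p and 0.204 for miR-429-3p). Where a library is left out, the lone library of its group is assumed to vary like the others. The call of miR-200b-3p was lost without paused replicate 2 (adjusted p = 0.0764) or control replicate 1 (0.252). That of miR-200a-3p was lost without paused replicate 1 (0.0730), paused replicate 2 (0.0506), control replicate 1 (0.0767, at a log2 fold change of 2.71) or control replicate 2 (0.172). The call of miR-429-3p was lost without any 1 of these 4 libraries (0.0567 to 0.295) and with the total count alone (0.0635), no filter (0.0543) or a filter at 10 CPM (0.0606). miR-200c-3p was called with TMM factors computed without the miR-290 cluster (0.0206) or with only the ESC groups (0.0427). Every arm kept a log2 fold change above 0 under every alternative run. Both control ESC libraries were shallower than either paused library, and the part of depth in these results was not tested.

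**Figure D2:**
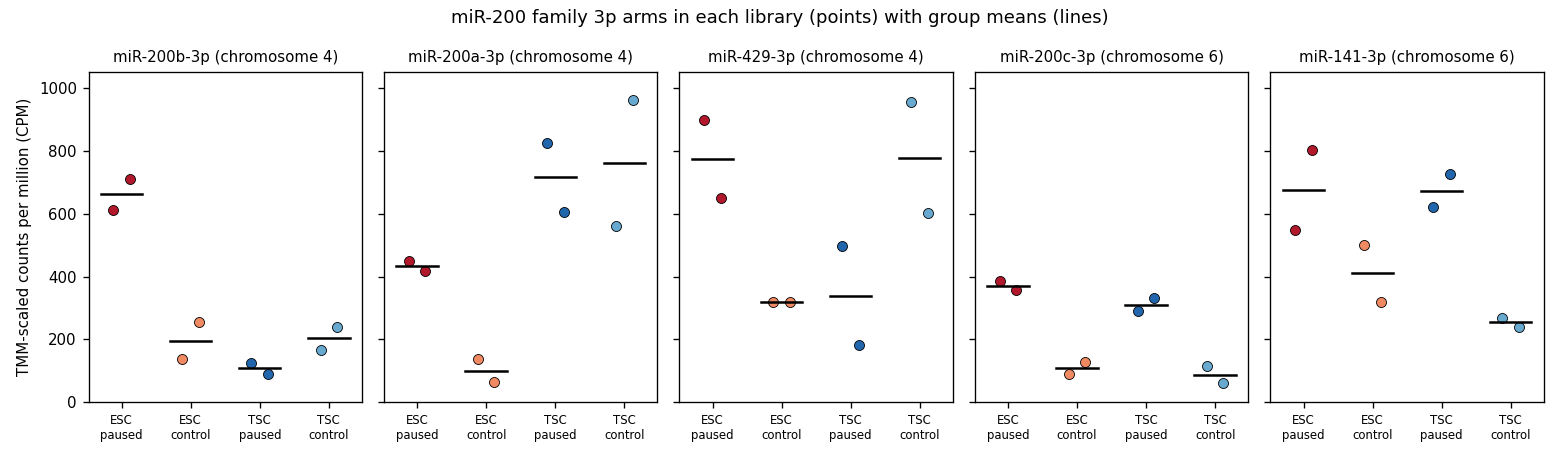
TMM-scaled CPM of each 3p arm (panels) by group, with 1 point per library and a line at the group mean of 2 libraries. In paused ESC all 5 arms lie above both control ESC libraries, while in TSC miR-429-3p lies lower and miR-200c-3p and miR-141-3p higher in paused than in control cells.

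On pausing of TSC the calls went in opposite directions at the loci. miR-429-3p of chromosome 4 fell and miR-141-3p of chromosome 6 rose, and no other arm passed the test. Over all 206 tested miRNAs 18.9% were called, 1.94% higher and 17% lower, so an increase was the rarer kind of call, and the median log2 fold change was −0.39, against 0.046 over the 5 arms.

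miR-429-3p had 12 and 6 counts in paused TSC (496 and 181 CPM), against 75 and 10 in control TSC (955 and 602 CPM). Both paused libraries were lower than either control library, as for 35.9% of all tested miRNAs, and the arm fell by 1.38 ± 0.46 SE on the log2 scale (edgeR adjusted p = 0.0258). miR-200b-3p had 3 and 3 counts in paused TSC (124 and 90.7 CPM), against 13 and 4 in control TSC (166 and 241 CPM), with a log2 fold change of −0.78 and a 95% interval of −2.29 to 0.73 (adjusted p = 0.566). miR-200a-3p had 20 and 20 counts in paused TSC (827 and 605 CPM), against 44 and 16 in control TSC (561 and 963 CPM). Its libraries overlapped, and its log2 fold change was 0.046, with a 95% interval of −0.78 to 0.87. The arms of the chromosome 4 locus therefore ranged from a called decrease to a value near 0.

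miR-141-3p had 15 and 24 counts in paused TSC (620 and 726 CPM), against 21 and 4 in control TSC (268 and 241 CPM), and rose by 1.37 ± 0.48 SE (edgeR adjusted p = 0.0303). miR-200c-3p had 7 and 11 counts in paused TSC (289 and 333 CPM), against 9 and 1 in control TSC (115 and 60.2 CPM). Its log2 fold change was 1.57 ± 0.73 SE and did not pass (adjusted p = 0.131). Scaled by the total count only, it was called (2.13, adjusted p = 0.0304). Without control TSC replicate 1, which leaves 1 control count, it stood at 2.32 (0.397). Both chromosome 6 arms were higher in both paused libraries than in either control library, as 12.6% of all tested miRNAs were.

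The direction of miR-429-3p and of both chromosome 6 arms in TSC held under every alternative run, but the calls did not. DESeq2 called 0 of the 5 arms (adjusted p = 0.610 for miR-429-3p and 0.211 for miR-141-3p). It gave miR-200c-3p, at a log2 fold change of 1.96, no adjusted p. The call of miR-429-3p was lost with median-of-ratios scaling (0.0922), with the total count alone (0.225), with TMM factors computed without the miR-290 cluster (0.187), without control ESC replicate 2 (0.246), without paused TSC replicate 2 (0.478, at −0.75) and without control TSC replicate 1 (0.524), while without paused TSC replicate 1 the log2 fold change was −2.19. The call of miR-141-3p held with each of these scalings and was lost without paused ESC replicate 2 (0.0527), paused TSC replicate 1 (0.0966), paused TSC replicate 2 (0.236) or control TSC replicate 1 (0.253). Scaling moves all TSC values together: relative to TMM, the total count alone moved single miRNAs by a median of 0.51 on the log2 scale in this comparison, median-of-ratios scaling by 0.26, and TMM without the cluster by 0.35. With the total count alone 14 of all tested miRNAs were called higher and 12 lower, against 4 and 35 with TMM.

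**Figure D3:**
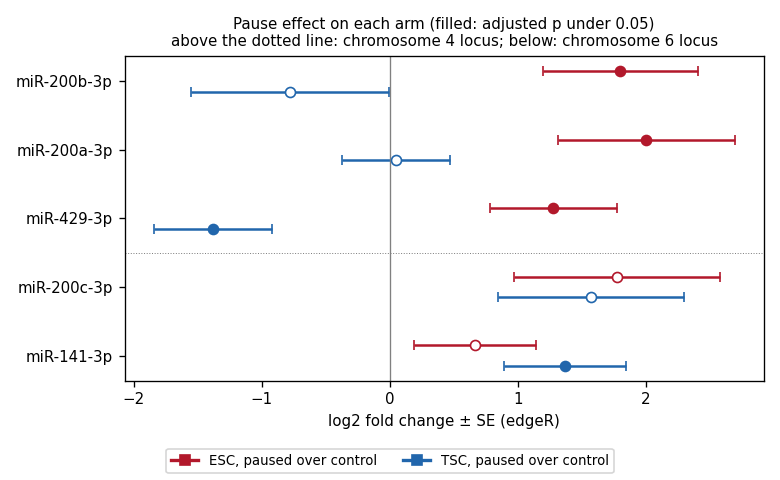
log2 fold change of paused over control cells for each 3p arm, with bars of 1 SE from edgeR, in ESC and in TSC, and filled points where the adjusted p was under 0.05. The chromosome 4 arms lie between 1.28 and 2.00 in ESC and between −1.38 and 0.046 in TSC, whereas the chromosome 6 arms lie above 0 in both.

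The pause effect in the filtered fit was called different between the cell types for miR-429-3p of the chromosome 4 locus. The pause effect in ESC minus that in TSC was 2.66 ± 0.68 SE on the log2 scale for this arm (edgeR adjusted p = 0.00107). miR-429-3p was over the filter in both libraries of paused ESC and control TSC alone, the groups that raise this contrast. Its call carries that limit, and with no filter its difference was 2.60 (adjusted p = 0.0195). For miR-200b-3p it was 2.58 ± 0.99 SE (adjusted p = 0.0379), but that arm was tested only through its level in paused ESC, one side of this contrast, and with no filter the call was lost (0.130). For miR-200a-3p it was 1.96 ± 0.83 SE and did not pass (adjusted p = 0.0604). It ranged between 1.29 without control ESC replicate 2 and 2.67 without control ESC replicate 1, and was called without control TSC replicate 1 (0.0256) and with a filter at 10 CPM (0.0396). In that test 26.2% of all 206 miRNAs were called, 14.6% in this direction and 11.7% in the other. For the chromosome 6 arms the difference was 0.20 for miR-200c-3p, with a 95% interval of −2.12 to 2.52, and −0.70 for miR-141-3p, with an interval of −2.05 to 0.64. The interval of miR-200c-3p also held the difference of miR-200a-3p. The call of miR-429-3p held with any 1 library left out (highest adjusted p = 0.0490, without paused TSC replicate 2, at 2.03, and 3.46 without paused TSC replicate 1) and was lost with DESeq2 (0.0748). That of miR-200b-3p was lost without paused ESC replicate 1 (0.0580), paused ESC replicate 2 (0.0780), control ESC replicate 1 (0.162), control ESC replicate 2 (0.0899), paused TSC replicate 1 (0.0772), paused TSC replicate 2 (0.160) or control TSC replicate 1 (0.0597), and with the total count alone (0.135). With the total count alone, 17 of all tested miRNAs were called in this direction and 40 in the other, against 30 and 24 with TMM.

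A ratio of counts within a library does not depend on how libraries are scaled, so the balance of the loci was read from the share of the chromosome 4 arms among the 5. It was 67.7% of 232 counts and 60.5% of 190 counts in paused ESC, and 50% of 26 counts and 58.8% of 17 counts in control ESC. In TSC it was 61.4% of 57 counts and 45.3% of 64 counts in paused cells, and 81.5% of 162 counts and 85.7% of 35 counts in control cells. The share was thus higher in both control TSC libraries than in any other library. The chromosome 4 locus there had 4.40 and 6 times the counts of the chromosome 6 locus, against 1.59 and 0.829 times in paused TSC. The exact Clopper-Pearson 95% intervals were 74.6% to 87.1% and 69.7% to 95.2% in control TSC, and 47.6% to 74.0% and 32.8% to 58.3% in paused TSC. That of control TSC replicate 2 overlapped those of paused TSC replicate 1 and of paused ESC replicate 1 (61.2% to 73.6%). The mean log2 ratio of the loci was lower by 2.16 in paused than in control TSC (0.20 ± 0.67 against 2.36 ± 0.32, SD, n = 2), and higher by 0.58 in paused than in control ESC (0.84 ± 0.32 against 0.26 ± 0.36). In ESC the intervals of control cells, 29.9% to 70.1% and 32.9% to 81.6%, held both paused shares. Both also overlapped the interval of control TSC replicate 2. No p is given, because the ratio is a score over arms picked with results of these data known.

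**Figure D4:**
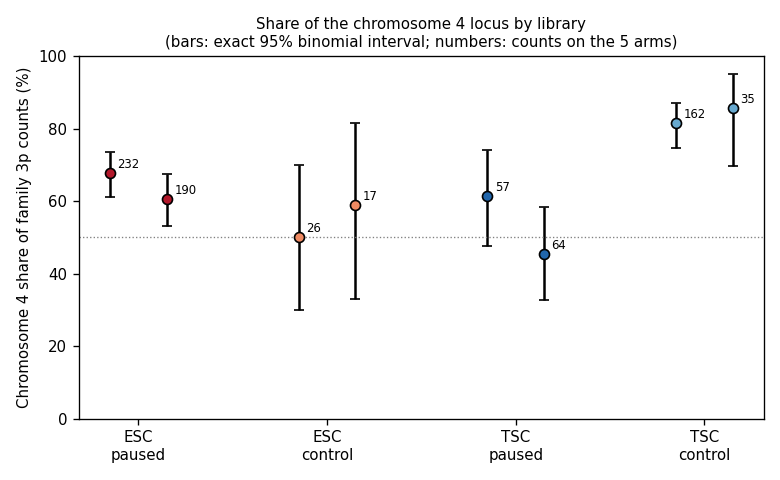
Share of the chromosome 4 arms among the counts of the 5 miR-200 3p arms, in percent, for each library, with exact 95% binomial intervals that cover counting error only and the number of counts beside each point. The control TSC libraries, at 81.5% and 85.7%, lie above all others, which range from 45.3% to 67.7%.

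Arms of the same precursor did not keep the same ratio in ESC and TSC. The counts of miR-200a-3p were 0.735 and 0.587 times those of miR-200b-3p in paused ESC, and 1 and 0.25 times in control ESC. In TSC they were 6.67 times in each paused library, at 20 against 3 counts in both, and 3.38 and 4 times in control cells. All 4 ESC libraries lay at or below 1 and all 4 TSC libraries above 3. Control ESC held only 6 and 5 counts of this pair. Exact 95% intervals of the miR-200a-3p share there, 11.8% to 88.2% and 0.505% to 71.6%, overlapped those of control TSC, 64.2% to 87.3% and 56.3% to 94.3%. In paused cells they were 31.7% to 53.6% and 26.0% to 49.1% in ESC, and 66.4% to 97.2% in each TSC library. The difference of mean log2 ratios between ESC and TSC was −3.34 in paused and −2.88 in control cells. On pausing it was 0.39 in ESC, where the libraries overlapped, and 0.86 in TSC. The counts of miR-429-3p were 1.47 and 0.913 times those of miR-200b-3p in paused ESC and 2.33 and 1.25 times in control ESC, against 4 and 2 times in paused TSC and 5.77 and 2.50 times in control TSC. They too were higher in every TSC library than in the libraries of the same state in ESC. In control cells the closest libraries held 10 against 4 counts in TSC and 7 against 3 in ESC. The 95% intervals of these 2 libraries, 41.9% to 91.6% and 34.8% to 93.3% for the miR-429-3p share, overlapped, so this gap is poorly fixed. On chromosome 6 the counts of miR-141-3p exceeded those of miR-200c-3p in all 8 libraries, by 1.42 to 5.50 times, and the ESC and TSC libraries overlapped in either state. Here the paused libraries lay below the controls in both cell types, at 1.42 and 2.26 times in paused ESC against 5.50 and 2.50 times in control ESC, and 2.14 and 2.18 times in paused TSC against 2.33 and 4 times in control TSC. Control counts of miR-200c-3p were as low as 1 and 2, so the gap on chromosome 6 is poorly fixed too.

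**Figure D5:**
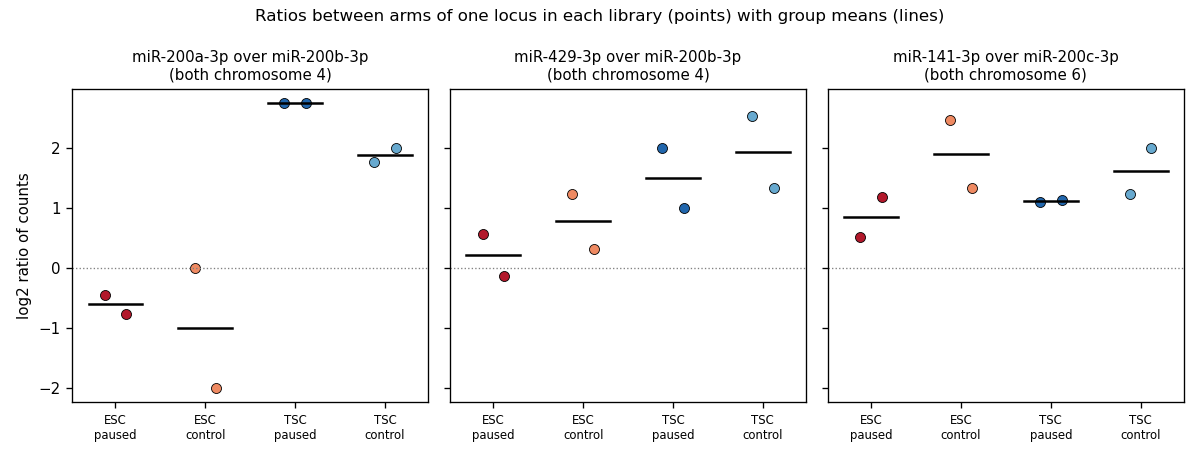
log2 ratio of counts between arms of the same locus in each library (points), with the mean of 2 libraries per group (lines). The ratio of miR-200a-3p to miR-200b-3p is at or below 0 in all ESC libraries and at 1.76 or more in all TSC libraries, while the ratio of miR-141-3p to miR-200c-3p overlaps between ESC and TSC.

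Set against each other by cell type, ESC and TSC differed in arms of the chromosome 4 locus, and no call fell on the chromosome 6 locus under TMM scaling. In control cells miR-200a-3p was lower in ESC than in TSC, at 100.3 ± 51.5 against 762 ± 285 CPM (SD, n = 2). The difference was −2.65 ± 0.68 SE on the log2 scale (edgeR adjusted p = 0.000203). This call held under all 17 alternatives (highest adjusted p = 0.0396, without control ESC replicate 2, at −1.94, and −3.37 without control ESC replicate 1). miR-429-3p was also lower in control ESC, at 319 ± 0.367 against 779 ± 250 CPM in control TSC (−1.39 ± 0.51 SE, adjusted p = 0.0105). That call was lost without control ESC replicate 1 (0.0850), control ESC replicate 2 (0.209) or control TSC replicate 1 (0.227), and with each other scaling (0.119 to 0.262). The other 3 arms had log2 fold changes of 0.037 for miR-200b-3p, 0.044 for miR-200c-3p and 0.69 for miR-141-3p, and miR-141-3p was called higher with each other scaling (adjusted p = 0.0258 to 0.0443). These 2 calls among 5 arms stand against 74.3% of all tested miRNAs called, 40.8% lower and 33.5% higher in control ESC. The other scalings moved single miRNAs by medians of 0.51 to 0.68 on the log2 scale and called 60 to 66 lower and 87 to 90 higher, against 84 and 69 with TMM. Without any test, 45.1% had both control ESC libraries below both control TSC libraries and 39.3% the reverse, as miR-200a-3p, miR-429-3p and miR-141-3p did in one way or the other.

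In paused cells the order at chromosome 4 was another. miR-200b-3p was higher in paused ESC than in paused TSC, at 661 ± 71.1 against 107 ± 23.5 CPM (SD, n = 2). The difference was 2.62 ± 0.61 SE on the log2 scale (edgeR adjusted p = 3.55e-05), and the call held under all 17 alternatives (highest adjusted p = 0.00758). This arm was over the filter in paused ESC alone, so its call in the filtered fit carries that limit. With no filter, where it did not have to be high to be tested, the difference was 2.95 (adjusted p = 9.47e-06). miR-429-3p was higher as well, at 774 ± 175 against 339 ± 222 CPM (1.27 ± 0.45 SE, adjusted p = 0.0066), but was lost without paused ESC replicate 1 (0.0952) or paused TSC replicate 2 (0.308, at 0.65), and stood at 2.08 without paused TSC replicate 1. For miR-200a-3p the log2 fold change was −0.70, with a 95% interval of −1.50 to 0.11 (adjusted p = 0.112). The chromosome 6 arms had close means under TMM scaling. miR-141-3p was at 677 ± 181 CPM in paused ESC and 673 ± 74.8 CPM in paused TSC, with a 95% interval of the log2 fold change of −0.79 to 0.76. miR-200c-3p was at 371 ± 21.8 CPM in paused ESC and 311 ± 30.6 CPM in paused TSC, with an interval of −0.85 to 1.33. Its libraries did not overlap. Over the alternatives the log2 fold change ranged from −0.30 to 0.71 for miR-141-3p and from 0.16 to 0.98 for miR-200c-3p. In this comparison 76.7% of all tested miRNAs were called, 37.4% higher and 39.3% lower in paused ESC, and the libraries did not overlap in 45.1% that were higher and 45.6% that were lower.

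Ordered by mean level, miR-200b-3p was highest in paused ESC, with control TSC, control ESC and paused TSC below it at 203, 196 and 107 CPM, of which control TSC and control ESC overlapped. miR-200a-3p was lowest in control ESC, with paused ESC, paused TSC and control TSC above it at 433, 716 and 762 CPM, of which the TSC groups overlapped. miR-429-3p stood at 774 CPM in paused ESC and 779 CPM in control TSC, whose libraries overlapped, and at 339 CPM in paused TSC and 319 CPM in control ESC, which overlapped as well. Both chromosome 6 arms were higher in each paused group than in its control, and their means were lowest in control TSC, where miR-200c-3p stood at 87.4 ± 38.5 and miR-141-3p at 254 ± 18.9 CPM. For miR-200c-3p the libraries of control TSC and control ESC overlapped.

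Grouped by seed in place of locus, the mean balance differed less on pausing of TSC. Arms with the seed AAUACUG held 65.5% and 58.4% of the family's counts in paused ESC, 46.2% and 64.7% in control ESC, 38.6% and 31.3% in paused TSC, and 59.9% and 42.9% in control TSC. The libraries of paused and control ESC overlapped, while both paused TSC libraries were below both control TSC libraries. The exact 95% interval of control TSC replicate 2, 26.3% to 60.6%, held both paused TSC shares. The difference of mean log2 ratios on pausing was 0.38 in ESC and −0.98 in TSC, against 0.58 and −2.16 for the ratio of the loci. The SD of the seed ratio was 0.31 in paused and 0.78 in control ESC (n = 2), so its smaller difference in ESC is poorly fixed. In paused cells the AAUACUG share was higher in both ESC than in both TSC libraries, which follows the levels of miR-200b-3p and miR-429-3p given above.

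The opposite 5p arms, which are usually degraded, were counted rarely, and 0 of 5 passed the filter, so they were not tested. Over the 8 libraries the 5p arm took 14.4% of the 146 counts of Mir200b (exact 95% interval 9.13% to 21.1%), 9.73% of 185 counts of Mir200a, 2.27% of 88 counts of Mir200c and 6.88% of 189 counts of Mir141. miR-429-5p had 0 of 229 counts, which allows a share of up to 1.31%. By group, the 5p arms of the chromosome 4 locus summed to 23 counts in paused ESC and 2 in control ESC, and to 1 in paused TSC and 13 in control TSC. Those of the chromosome 6 locus summed to 11 counts in paused ESC and 3 in control ESC, and to 1 in paused TSC and 0 in control TSC. The chromosome 4 sums were highest in paused ESC and control TSC, which hold the 3 deepest libraries.

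Of 14 other miRNAs linked to the epithelial state, 8 were tested. Called were 2 of the 8 on pausing of ESC, where 27.7% of all tested miRNAs were, and 1 of the 8 on pausing of TSC, where 18.9% were. In paused ESC miR-31-5p, a regulator of epithelial and stem cell growth, was the 1 called higher (log2 fold change 1.43, edgeR adjusted p = 0.0241) and miR-34a-5p, a p53 target that represses Snai1, the 1 called lower (−1.90, adjusted p = 1.82e-06), with a median log2 fold change of 0.35 over the 8. Paused ESC, where miR-31-5p was high, was the only group with both libraries over the filter for it, so its call carries that limit. In paused TSC miR-203-3p, a promoter of epithelial differentiation that represses the stem cell factor p63 in skin, was the 1 called lower (−2.40, adjusted p = 5.23e-07) and 0 were higher, with a median of −0.68 against −0.39 over all tested miRNAs. Between control ESC and control TSC, 6 of the 8 were lower and 1, miR-205-5p (1.53), was higher in ESC, against 40.8% lower and 33.5% higher over all tested miRNAs. miR-205-5p, like miR-200, represses Zeb1 and Zeb2. In paused cells 4 were lower and 2 higher in ESC, against 39.3% lower and 37.4% higher over all tested miRNAs. Those higher in ESC, miR-205-5p and miR-31-5p, passed the filter only through ESC libraries. Among those lower in ESC, miR-203-3p and miR-96-5p passed it only through TSC libraries. These calls carry the same limit. The summed level of the list was 10811 to 11416 CPM in paused ESC, 10225 to 11075 CPM in control ESC, 22940 to 24192 CPM in paused TSC and 33767 to 43745 CPM in control TSC, most of it on miR-34a-5p, miR-183-5p and miR-101a-3p.

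Markers of mesenchymal and of other cells were checked beside these levels. The mesenchymal-linked list of 12 summed to 2429 to 2544 CPM in paused ESC, 2812 to 3281 CPM in control ESC, 7895 to 12005 CPM in paused TSC and 3672 to 7261 CPM in control TSC. Only 2 of the 12 were tested. Of these miR-21a-5p rose in paused TSC (log2 fold change 0.97, edgeR adjusted p = 0.0294) and held most of the sum. The other, miR-143-3p, had a log2 fold change of −1.18 there and did not pass (edgeR adjusted p = 0.0949). The higher sum in paused TSC thus followed miR-21a-5p and not the list as a whole. miR-199a-3p, miR-199a-5p and miR-9-5p were at 0 in all 8 libraries. The list of 14 markers of blood, nerve, muscle, endothelium and liver summed to 5600 to 6198 CPM in paused ESC and 8796 to 10481 CPM in control ESC, and to 1935 to 2439 CPM in paused TSC and 3190 to 3325 CPM in control TSC, and 6 of them, miR-223-3p, miR-451a, miR-124-3p, miR-1a-3p, miR-133a-3p and miR-122-5p, were at 0 in all libraries. Of the 5 tested on pausing of ESC, 1 rose and 2 fell, where 8.25% of all tested miRNAs were called higher and 19.4% lower. miR-150-5p, known from lymphocytes, was at 4527 ± 299 CPM in paused ESC against 1933 ± 746 CPM in control ESC (log2 fold change 1.20, edgeR adjusted p = 0.00813), the same direction as the miR-200 arms. miR-142a-3p and miR-142a-5p, known from blood cells, had log2 fold changes of −3.86 (adjusted p = 2.27e-15) and −4.25 (adjusted p = 6.74e-20). Both passed the filter only through control ESC, where they were high, so these calls carry that limit. On pausing of TSC 0 of the 5 were called, against 18.9% of all tested miRNAs. The part of other cell types in the miR-200 levels was not tested.

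Across the 8 libraries, the miRNAs whose TMM-scaled log2 CPM was most like that of each arm differed between the loci, as a description with no test. For miR-141-3p the nearest of all other tested miRNAs was miR-200c-3p (Pearson's r = 0.84), and for miR-200c-3p it was the second nearest after miR-148a-3p (0.86), so the chromosome 6 arms had each other among their nearest. The chromosome 4 arms did not. miR-200b-3p was nearest to miR-1949 (0.86), miR-130b-5p (0.85) and miR-27b-3p (0.85), miR-200a-3p to miR-3102-3p (0.93), miR-296-5p (0.93) and miR-324-3p (0.92), and miR-429-3p to miR-96-3p (0.88), miR-294-3p (0.83) and miR-672-5p (0.64). Among themselves r was −0.080 between miR-200a-3p and miR-200b-3p, 0.35 between miR-200a-3p and miR-429-3p, and 0.58 between miR-200b-3p and miR-429-3p. The libraries share group, depth and scaling, and several of the counts were under 10.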

How the data were processed

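RNA enriched for small species on columns entered SMARTer smRNA-seq libraries, 10 ng each with 12 PCR cycles, which were read single-end at 75 bp, per the labels' protocols. The deposited files hold raw counts that the authors made from reads placed on GRCm38, a build taken from the submitters' processing notes. Not given in the sources used here were the aligner, the counter, the annotation release and the handling of multi-mapping reads. Files identical within a group were counted once. The test used edgeR 4.0.16 (R 4.3.3): TMM scaling, filterByExpr with a minimum count of 10, 1 mean per group over all 4 groups, 4 residual degrees of freedom, a common dispersion of 0.0456 with infinite prior degrees of freedom (so the spread is pooled over miRNAs), and two-sided tests of 5 contrasts, each adjusted over 206 miRNAs.

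The arms and lists were chosen with earlier results of these data known. The text names the 5 3p arms, their 5p arms, called or absent members of the lists, and for each arm the 3 tested miRNAs with the highest Pearson's r of log2 CPM. Alternatives were DESeq2 1.42.0, other scalings and filters, every file as a library, only the groups compared, a block by replicate number, and leaving out single libraries. The same 206 miRNAs were kept unless the filter itself was changed.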

Additional observations from a re-analysis of the deposited data

Results flagged for a closer look

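Among the miRNAs tested after the filter, the test of the difference in edgeR called the effect of pausing different between the cell types for 2 arms, both of the chromosome 4 locus. It called 26.2% of all 206 tested miRNAs, 14.6% in the direction of these arms and 11.7% in the other. The pause effect in ESC minus that in TSC was 2.66 on the log2 scale for miR-429-3p and 2.58 for miR-200b-3p. In both cases the fitted pause effect was above 0 in ESC and below 0 in TSC. miR-200b-3p was over the filter in paused ESC alone, a group of this contrast, so its call carries that limit, and it was lost with no filter (adjusted p = 0.130). miR-429-3p was over the filter in both libraries of paused ESC and control TSC alone, which both raise this difference. The call of miR-429-3p held with no filter (edgeR adjusted p = 0.0195) and was lost with DESeq2 (adjusted p = 0.0748). DESeq2 gave miR-200b-3p no adjusted p.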

How the results depend on the processing

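Main counts of called arms among the 5 were 3 on pausing of ESC, and 2 each on pausing of TSC, for the difference of pause effects, and for ESC against TSC in control and in paused cells. With 1 library left out they ranged from 0 to 3, 0 to 2, 1 to 2, 1 to 2 and 1 to 2 in that order. On pausing of ESC, 0 were called by DESeq2 and 5 with every deposited file as a library; the replicate block called 2, without miR-429-3p (adjusted p = 0.0903). On pausing of TSC, 0 were called by DESeq2, which gave miR-200c-3p no adjusted p, with no filter or with the replicate block. With only the groups compared, the filter at 10 CPM, median-of-ratios scaling, or TMM factors computed without the miR-290 cluster, 1 was called. For the difference, 0 were called by DESeq2, which gave 2 of the 5 arms no adjusted p, and 1 with the total count alone, no filter or the replicate block. Between control ESC and control TSC, 1 was called by DESeq2, with no filter or with the filter at 10 CPM. Causes were not tested.

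Replicate numbers are shared across groups, but with 2 libraries per group they cannot be shown to pair. Deviations of same-numbered libraries correlated at −0.071 in ESC and −0.18 in TSC. Crossed pairing in TSC, chosen after seeing the data, called 1 arm and 25 miRNAs in all, against 12 with the replicate block and 39 without.

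Over all tested miRNAs, more than 206 where the filter was loosened, the calls moved by more than 1.5 times as follows. On pausing of ESC, 57 became 37 with DESeq2, 91 with every file and 37 without paused ESC replicate 2. On pausing of TSC, 39 became 16 with DESeq2 or no filter, 24 with median-of-ratios scaling, 19 with TMM without the cluster, 22 with only the groups compared, and 12 to 57 with 1 library left out; the higher calls were 4 of 39, but 14 of 26 with the total count. For the difference, 54 became 30 with DESeq2 or no filter, 89 with every file, 31 with the replicate block and 34 to 69 with 1 library left out.

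Signs that changed belonged to uncalled arms. On pausing of TSC miR-200a-3p was at −0.34 with the filter at 10 CPM, −0.13 with every file, −0.033 with the crossed block and −0.45 to 0.42 with 1 library left out. The difference for miR-200c-3p was −0.45 with the total count, −0.013 with every file and −0.55 to 0.35 with 1 library left out. Between control ESC and control TSC miR-200b-3p was at −0.027 with the replicate block and −0.36 to 0.48, and miR-200c-3p at −0.10 to 0.79, with 1 library left out. Between paused ESC and paused TSC miR-200a-3p was at 0.045 with TMM without the cluster, and miR-141-3p at 0.40 with DESeq2, 0.39 with median-of-ratios scaling, 0.00040 with the total count, 0.71 with TMM without the cluster, 0.33 with no filter, 0.63 with the filter at 10 CPM, 0.036 with every file, 0.11 with only the groups compared and −0.30 to 0.25 with 1 library left out.

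Taken as means of log2 CPM per locus, the log2 ratio of the loci was 0.25 in paused ESC, −0.19 in control ESC, −0.56 in paused TSC and 1.43 in control TSC. With 0.5 counts added to each arm, the log2 ratio in paused TSC was 2.55 for miR-200a-3p to miR-200b-3p and 1.07 for miR-141-3p to miR-200c-3p. Counts under 10 in control libraries limit every fold change given.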
